A study of Mus musculus with 12 samples.

Results

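The 6 genes described here are the 4 gasdermin C genes of the mouse (Gsdmc, Gsdmc2, Gsdmc3 and Gsdmc4), Gsdmd and Pla2g4c. They were chosen by symbol out of 55487 genes in the count tables, and they were picked because of how they behaved in these same libraries. Their values are therefore given as a description, with no p-value. RNA was sequenced from the intestinal epithelium of C57BL/6 mice in 4 groups of 3 libraries each. SI tissue and LI tissue were freshly isolated crypts of the small and large intestine, labelled as in vivo material, with 1 mouse per library. SI monolayers and LI monolayers were crypts of the same organs that had been plated on Matrigel and cultured for 24 h in control medium without drug, with pooled wells per library. The control medium contained Wnt3a, EGF, Noggin and R-spondin-1, after a short seeding step that also included CHIR-99021, LDN-193189 and Y-27632. All mice were wild type, male or female, between 6 and 10 weeks old, and the small intestinal crypts came from the jejunum. Large intestinal tissue was also digested with collagenase and dispase before its crypts were collected, which the small intestinal tissue was not, so region and preparation cannot be told apart.

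Gasdermins are pore-forming proteins. A protease cuts the linker of the folded protein, the released amino-terminal part inserts into the plasma membrane, and the pores let cytokines out and can kill the cell by pyroptosis. Gsdmd is the gasdermin cut by the inflammatory caspases downstream of inflammasomes. The gasdermin C genes are expressed in gut epithelium and are known as targets of type 2 cytokines acting through Stat6 during worm infection. Pla2g4c encodes the gamma form of cytosolic phospholipase A2, a membrane-bound enzyme that frees fatty acids from phospholipids without needing calcium.

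The 12 libraries held 59016196 to 76216530 counts each, so 3 counts correspond to 0.0394 to 0.0508 CPM (counts scaled to 1000000 per library after TMM). The 10 epithelial markers summed to 14400 to 15900 CPM in tissue and 28300 to 29100 CPM in monolayers of the small intestine, and to 23900 to 24100 and 36000 to 37100 CPM in those of the large intestine, and none of them was at or below 3 counts. The 12 immune markers were highest in SI tissue, at 157 to 236 CPM in sum. They reached 38.9 to 51.0 CPM in LI tissue, 13.3 to 14.6 CPM after culture in the small intestine and 8.7 to 10.6 CPM after culture in the large intestine. The only immune marker without any count in either monolayer group was S100a8. One LI tissue library stood apart in the sum of the 7 markers of gut region, which include genes of both organs. LI tissue replicate 1 had 3510 CPM and the other LI tissue libraries 1010 and 1110 CPM. The excess lay mostly in Car1, a large intestinal marker with 709 to 3120 CPM across LI tissue and 1.49 to 2.59 in SI tissue. Small intestinal markers were far lower in all LI tissue than in SI tissue. Sis had 2.82 to 24.7 against 2370 to 3660 CPM, and Gata4 1.28 to 3.23 against 167 to 192 CPM. Fabp2 had 165 to 284 against 1240 to 2580 CPM. Member values without that library are given where LI tissue enters.

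The 4 gasdermin C genes lie side by side on the minus strand of chromosome 15 and span 136.3 kb (GRCm38). Gsdmc occupies chr15:63775968-63808759, Gsdmc2 chr15:63824346-63845177, Gsdmc3 chr15:63857724-63878558 and Gsdmc4 chr15:63891264-63912297. Gsdmd sits farther along the same chromosome, at chr15:75862327-75867408 on the plus strand, and Pla2g4c is at chr7:13324655-13360672 on the plus strand. All 6 are annotated as protein coding. The coding sequences of Gsdmc2 and Gsdmc3 were 97.1% identical, and each was 93.8% identical to Gsdmc4. Gsdmc was the most divergent of the cluster, with 87.0% to 88.1% identity to the others, and Gsdmd shared 62.3% to 63.3% of aligned bases with the 4 genes.

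The first 60 coding bases, from the start codon on, are shown because they separate Gsdmc from its neighbours. Capitals mark the 7 positions at which the 4 genes differ, and Gsdmc2, Gsdmc3 and Gsdmc4 are identical over this stretch.
Gsdmc: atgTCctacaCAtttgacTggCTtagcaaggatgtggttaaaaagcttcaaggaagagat
Gsdmc2: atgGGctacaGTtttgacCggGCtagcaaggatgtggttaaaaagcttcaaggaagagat
Gsdmc3: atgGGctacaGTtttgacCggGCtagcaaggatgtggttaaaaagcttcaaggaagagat
Gsdmc4: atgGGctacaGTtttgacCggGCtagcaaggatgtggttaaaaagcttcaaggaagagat

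A second stretch, coding bases 909 to 968, is shown because Gsdmc2, Gsdmc3 and Gsdmc4 can be told apart in it. It has the most differing positions among the 60-base windows in which each pair was still largely alike. Bases were compared position by position without alignment, so a small shift between the genes would also appear as capitals. Capitals mark the 16 positions at which they are not all alike, most of which set Gsdmc4 apart from the other two.
Gsdmc2: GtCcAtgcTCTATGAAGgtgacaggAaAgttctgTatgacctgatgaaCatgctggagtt
Gsdmc3: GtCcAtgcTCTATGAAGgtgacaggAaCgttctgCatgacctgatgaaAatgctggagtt
Gsdmc4: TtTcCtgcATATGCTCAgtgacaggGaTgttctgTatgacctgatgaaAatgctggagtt

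The likeness bears on the counts. Of all 100-base stretches in the annotated transcripts, 28.6% of those of Gsdmc2, 28.4% of Gsdmc3, 20.2% of Gsdmc4 and 7.03% of Gsdmc also occur in another gene, nearly always another gene of the cluster, while none of those of Gsdmd or Pla2g4c do. Of 50-base stretches the shares were 51.3%, 46.0%, 39.0% and 16.1% in the same order, and 3.14% for Pla2g4c, most of it shared with the pseudogene Pla2g4c-ps. The read length is not given in the sources used here. How the authors' counting divided reads that fit several copies is not given in the sources used here. The separate values of Gsdmc2, Gsdmc3 and Gsdmc4 are therefore uncertain at the level of small differences between them.

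Gsdmc2, Gsdmc3 and Gsdmc4 were highly expressed in both tissues, and all 4 gasdermin C genes were far lower in both kinds of monolayer. Gsdmc4 stood at 62502, 112748 and 102153 normalized counts (counts divided by a size factor per library) in SI tissue and at 233, 222 and 12.8 in SI monolayers. In LI tissue its values were 82615, 81195 and 84003, and in LI monolayers 73.2, 264 and 358. Every tissue library lay far above every monolayer library in both organs. The fitted log2 fold change of Gsdmc4 was -9.18 (SE 0.92) in SI monolayers against SI tissue and -8.44 (SE 0.89) in LI monolayers against LI tissue. Each SE given here is approximate, derived from the edgeR F value with a dispersion shared by all 4 groups. It does not measure the spread of the libraries compared.

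**Figure D1:**
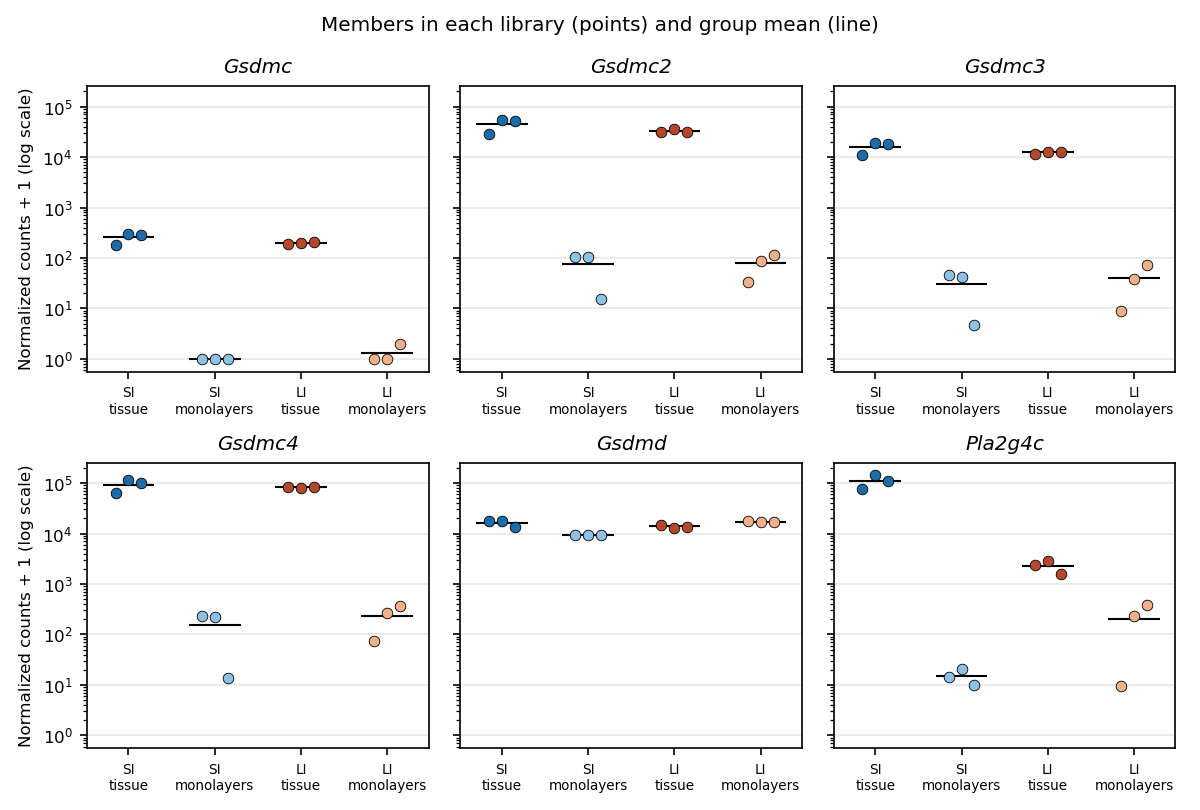
Normalized counts plus 1 (log axis) of the 6 members in each of the 12 libraries, with the 3 replicates of a group as points and the group mean as a line. The 4 gasdermin C genes sit high in both tissues and low in both kinds of monolayer, Gsdmd stays between 9274 and 17721 in all libraries, and Pla2g4c is highest in SI tissue.

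Gsdmc2 showed the same order of values at a lower level. In the small intestine it had 29264, 54976 and 52296 normalized counts in tissue and 105, 105 and 14.6 in the monolayers. In the large intestine it had 32089, 36338 and 31219 in tissue and 32.7, 87.2 and 111 in the monolayers. The fitted log2 fold change was -9.22 (SE 0.63) in the small and -8.72 (SE 0.62) in the large intestine. For Gsdmc3 the small intestinal values were 11088, 18716 and 17825 in tissue and 45.1, 40.1 and 3.65 in culture. The large intestinal values were 11750.3, 12371 and 12856 in tissue and 7.7, 36.7 and 71.1 in culture. Its fitted log2 fold change was -9.03 (SE 0.58) in the small and -8.28 (SE 0.56) in the large intestine. Both genes gave the same picture as Gsdmc4, in that the lowest tissue library was far above the highest monolayer library. Without LI monolayers replicate 3 the large intestinal value of Gsdmc3 became -9.21.

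Gsdmc, the first gene of the cluster, was expressed far more weakly. It had 180, 302 and 278 normalized counts in SI tissue and 185, 197 and 205 in LI tissue. In SI monolayers no read was counted in any library, and in LI monolayers a single read was counted in 1 of 3 libraries. Raw counts of Gsdmc added up to 727 over SI tissue and to 642 over LI tissue. Against a floor of 3 counts over the monolayer group, Gsdmc was at least 273-fold lower in SI monolayers. In the large intestine the ratio of tissue to monolayers was 554, with an exact 95% counting interval of 99.2 to 21932 that covers counting error only.

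Per kilobase of annotated exon, the scale on which genes can be compared, Gsdmc4 had the highest level of the cluster, with 659 ± 188 CPM per kb in SI tissue and 573 ± 13.4 in LI tissue (SD, n = 3). Gsdmc2 followed with 293 ± 90.8 and 208 ± 17.1, then Gsdmc3 with 101 ± 26.6 and 76.6 ± 4.22, and Gsdmc with 1.57 ± 0.399 and 1.18 ± 0.0729. In each tissue the replicate values of neighbouring genes in this order did not overlap. Gsdmc4 ranked 75th in SI tissue and 84th in LI tissue among 55227 genes with a length, and Gsdmc2 ranked 209th and 280th. The 4 genes together took 0.143% to 0.265% of all counts in SI tissue libraries and 0.189% to 0.191% in LI tissue libraries. In the monolayers they were down to 34 to 412 reads per SI library and 118 to 547 reads per LI library.

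The proportions of Gsdmc2 and Gsdmc3 to Gsdmc4 were of similar size at both levels of expression in most libraries. Reads shared between these genes may bear on the ratios. In counts, Gsdmc2 was 0.468, 0.488 and 0.512 of Gsdmc4 in SI tissue, and 0.388, 0.448 and 0.372 in LI tissue. In the monolayers the same ratio was 0.449 and 0.474 in SI replicates 1 and 2, and 0.447, 0.33 and 0.309 in the LI libraries. SI monolayers replicate 3 was the exception at 1.14, on 16 and 14 reads. That library had 34 cluster reads in all, about an order of magnitude fewer than its replicates with 399 and 412. The ratio of Gsdmc3 to Gsdmc4 was 0.142 to 0.177 in the tissue libraries and 0.105 to 0.286 in the monolayer libraries, with the highest value again in SI monolayers replicate 3. Gsdmc had too few monolayer reads for a ratio.

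Between small and large intestinal tissue the gasdermin C genes lay close together. The log2 fold change of LI tissue against SI tissue was -0.41 (SE 0.24) for Gsdmc, -0.49 (SE 0.42) for Gsdmc2, -0.41 (SE 0.36) for Gsdmc3 and -0.20 (SE 0.63) for Gsdmc4. The replicate values overlapped between the organs for all 4 genes, because SI tissue replicate 1 lay below the LI tissue libraries while SI tissue replicates 2 and 3 lay above them. Without LI tissue replicate 1 the values were -0.37, -0.46, -0.36 and -0.19. In the monolayers the difference between the organs was 0.00 (SE 0.68) for Gsdmc2, 0.35 (SE 0.84) for Gsdmc3 and 0.54 (SE 0.78) for Gsdmc4, and it turned to -0.52, -0.20 and -0.04 without SI monolayers replicate 3. No fold is given for Gsdmc in the monolayers, where both groups were under the floor.

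**Figure D2:**
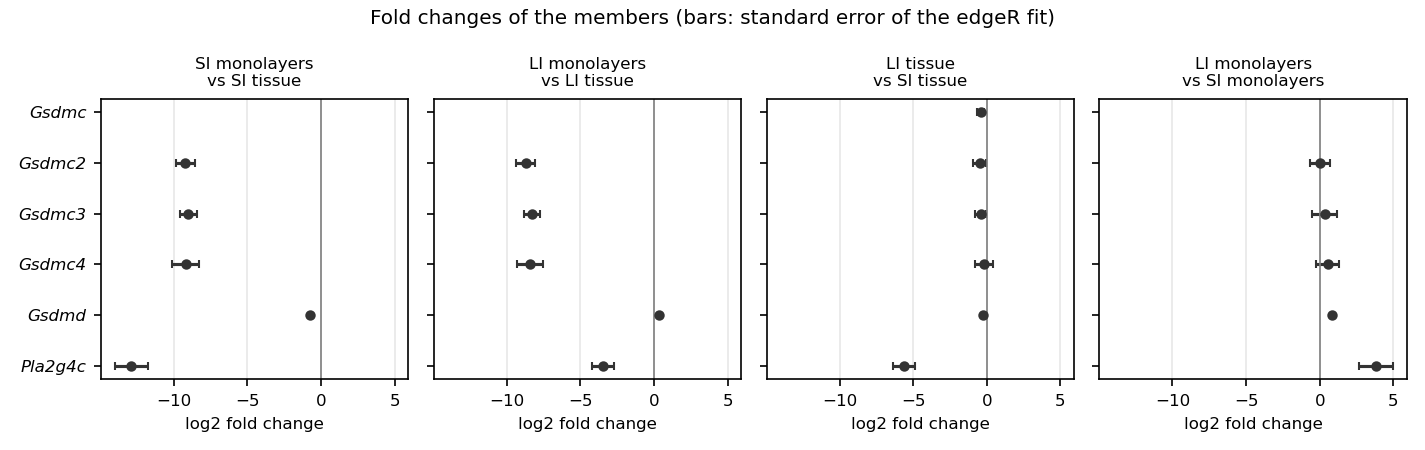
Log2 fold changes of the 6 members in the 4 comparisons between groups, with the approximate standard error derived from the edgeR F value as bars. Gsdmc2, Gsdmc3 and Gsdmc4 lie between -9.22 and -8.28 in both culture comparisons and near 0 between organs, Gsdmd stays within 1 of 0, and Pla2g4c ranges from -12.89 to 3.82. Gsdmc is drawn for the tissue comparison only, since it had at most 1 read in the monolayers.

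The lower level in the monolayers extended to the counted pseudogenes of the cluster and was not seen in the next tested genes beyond Gsdmc4. Gsdmcl1, a pseudogene between Gsdmc2 and Gsdmc3, had no count in any library. On the Gsdmc side of the cluster no gene within 500 kb had enough counts to be tested. The genes named in this paragraph as neighbours were chosen after their values were seen. Gsdmcl2, a transcribed pseudogene between Gsdmc3 and Gsdmc4 on the opposite strand, had a mean of 4329.6 normalized counts in SI tissue and 12.9 in SI monolayers, and of 5201 in LI tissue and 10.8 in LI monolayers. Gsdmcl-ps, a pseudogene beyond Gsdmc4, went from means of 375 and 419 in SI and LI tissue to 0 and 0.765 in the monolayers. Fam49b, the next protein-coding gene, starts 153.1 kb from the start of Gsdmc and had means of 4236 in SI tissue and 3520.1 in SI monolayers, and of 2493 in LI tissue and 4489 in LI monolayers. Asap1, the gene after it, had 777 and 1727 in the small intestine and 1299.8 and 2409.8 in the large intestine, tissue first. Neither neighbour was lower by a call in the monolayers, with log2 fold changes of -0.23 and 0.89 for Fam49b and of 1.19 and 0.94 for Asap1.

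**Figure D3:**
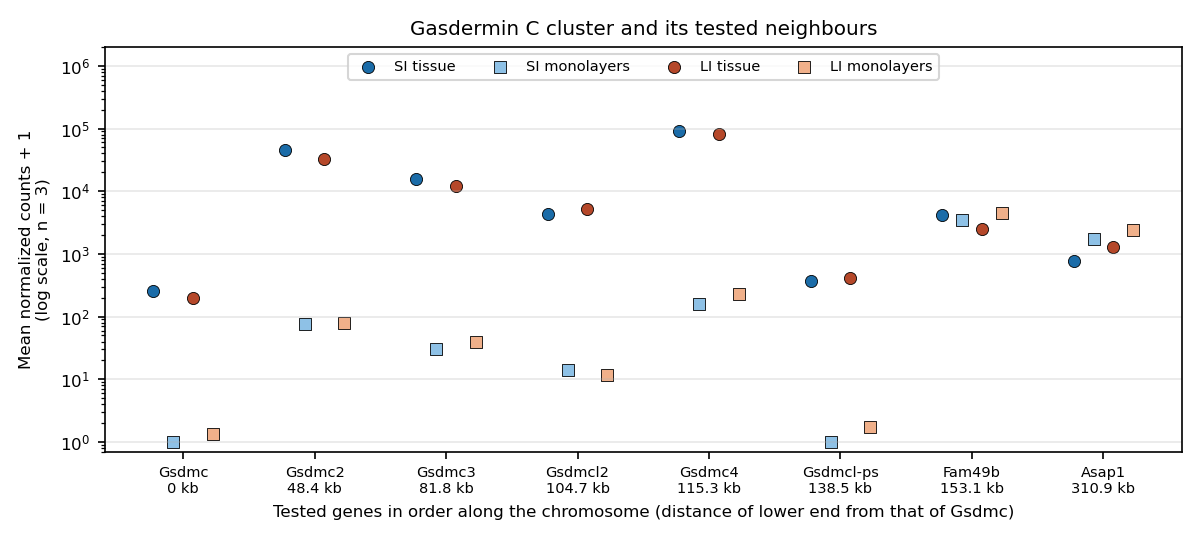
Mean normalized counts plus 1 (log axis, n = 3 per group) of the tested genes along the gasdermin C cluster, placed in order with the distance in kb from the lower end of Gsdmc. Circles (tissue) and squares (monolayers) are far apart for the 4 Gsdmc genes and the pseudogenes Gsdmcl2 and Gsdmcl-ps, and close together for Fam49b and Asap1.

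Among the promoters, a RefSeq sequence (GRCm38.p6) was at hand for Gsdmc3 and for Pla2g4c. The Gsdmc3 promoter, chr15:63878509-63878808 on the minus strand, is printed because it is the 1 window of the cluster in the promoter table, with a TATA box match 29 bases before the start site in capitals.
Gsdmc3: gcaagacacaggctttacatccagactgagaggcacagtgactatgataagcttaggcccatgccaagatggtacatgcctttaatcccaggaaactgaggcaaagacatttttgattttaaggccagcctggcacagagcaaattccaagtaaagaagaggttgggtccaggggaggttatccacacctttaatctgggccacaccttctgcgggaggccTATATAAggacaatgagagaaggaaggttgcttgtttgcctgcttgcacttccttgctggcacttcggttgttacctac

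On both strands, the letters TATANAA occurred in 11.3% of 32851 promoters of the same length, TTCNNNNGAA (the Stat6 palindrome) in 6.95%, TTTATNG (a Cdx2 site) in 10.9% and CAAAGTCCA (an Hnf4a site) in 0.475%. Of these, only TATANAA matched in the Gsdmc3 window, and none matched in the windows of Pla2g4c. A match describes letters, and its absence says only that they are not in this window.

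Gsdmd, the gasdermin of inflammasome signalling, differed far less between tissue and culture. Its normalized counts were 17570.1, 17518 and 13786 in SI tissue and 9329, 9274 and 9559 in SI monolayers. In LI tissue they were 14843, 12923 and 13793, and in LI monolayers 17721, 17075 and 16869. The monolayer libraries lay below all tissue libraries in the small intestine and above all tissue libraries in the large intestine. The log2 fold change with culture was -0.76 (SE 0.08) in the small and 0.36 (SE 0.08) in the large intestine, both within the 2-fold minimum of the call rule.

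Between organs, Gsdmd was close in tissue, with a log2 difference of -0.27 (SE 0.08) and overlapping libraries, and 1.8-fold higher in LI than in SI monolayers, a log2 difference of 0.85 (SE 0.08) with no overlap. The interaction, which is the culture difference in the large intestine minus that in the small intestine, was 1.12 (SE 0.11) on the log2 scale. It was 0.99 without LI monolayers replicate 1 and 1.16 without LI tissue replicate 1. Per kilobase, Gsdmd had 102 ± 13.1 CPM per kb in tissue and 60.2 ± 1.08 in monolayers of the small intestine, and 84.3 ± 5.36 and 108 ± 3.5 in those of the large intestine (SD, n = 3). In the monolayers it was thus the most abundant of the 6 members, where Gsdmc4 stood at 1.14 ± 0.905 and 1.65 ± 1.03.

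Pla2g4c was most abundant in SI tissue. It had 77698, 141695 and 112394 normalized counts there, and 13.4, 19.6 and 9.12 in SI monolayers. In LI tissue the values were 2431, 2847 and 1593, and in LI monolayers 8.66, 233 and 376. All SI tissue libraries were above all others, the LI tissue libraries were next, and LI monolayers replicate 1 was as low as the SI monolayers while replicates 2 and 3 were higher. Per kilobase, Pla2g4c stood at 439 ± 126 CPM per kb in SI tissue (SD, n = 3), where it ranked 118th, and at 8.83 ± 2.43 in LI tissue, where it ranked 4915th. In SI tissue its level per kilobase lay between those of Gsdmc4 and Gsdmc2, although its replicate range overlapped both.

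The log2 fold change of Pla2g4c with culture was -12.89 (SE 1.12) in the small and -3.44 (SE 0.74) in the large intestine. In tissue, the log2 difference of LI against SI was -5.64 (SE 0.76), or 49.7-fold lower, and in the monolayers LI was higher by 3.82 (SE 1.16). The order of the organs was thus opposite before and after culture, and the interaction was 9.45 (SE 1.28). The large intestinal values rested on uneven monolayer replicates: without LI monolayers replicate 3, the culture difference there was -4.33, the difference between monolayers 2.97 and the interaction 8.52. Without LI tissue replicate 1 the culture difference was -3.40 and the difference between tissues was -5.67.

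Among 9219 genes with a mean of at least 10 CPM, Pla2g4c had the most negative culture fold change in the small intestine, and Gsdmc2, Gsdmc4 and Gsdmc3 took places 3, 4 and 5. In the large intestine Gsdmc2, Gsdmc4 and Gsdmc3 took places 9, 12 and 15, and Pla2g4c place 236. Pla2g4c also had the most positive interaction of these genes. The members were picked for their behaviour in these libraries, so these places are a description and no test. The mean was taken over all 12 libraries, and Gsdmc2, Gsdmc3, Gsdmc4 and Pla2g4c reached 10 CPM through their tissue libraries, for Pla2g4c mainly SI tissue. A pseudogene next to it, Pla2g4c-ps, named after its values were seen, had 127, 277 and 196 normalized counts in SI tissue and no more than 5.49 in any other library.

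**Figure D4:**
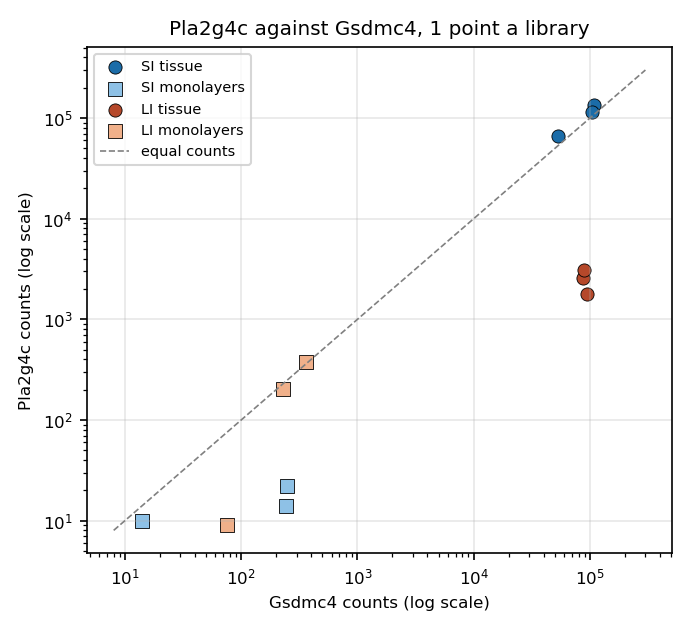
Raw counts of Pla2g4c against Gsdmc4 in the 12 libraries (both axes log), with a dashed line at equal counts. SI tissue lies on the line with ratios of 1.10 to 1.26, LI tissue lies far below it at 0.019 to 0.0351, and the monolayer libraries scatter between 0.0576 and 1.05.

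Pla2g4c and the gasdermin C genes were both high in SI tissue but parted in LI tissue. The ratio of Pla2g4c to Gsdmc4 counts was 1.24, 1.26 and 1.10 in SI tissue and 0.0294, 0.0351 and 0.019 in LI tissue. In SI monolayers it was 0.0576, 0.0884 and 0.714, and in LI monolayers 0.118, 0.883 and 1.05. Every monolayer library thus held more Pla2g4c for each Gsdmc4 read than any LI tissue library, although SI monolayers had only 46 Pla2g4c reads in all. The highest monolayer ratios were in LI monolayers replicates 2 and 3, on 203 and 381 Pla2g4c reads. The source of these reads was not tested.

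Within groups Gsdmc2, Gsdmc3 and Gsdmc4 moved together. The correlation of their deviations from the group mean, on log2 CPM, was 0.958 to 0.987 for pairs of Gsdmc2, Gsdmc3 and Gsdmc4 over the 6 tissue libraries and 0.971 to 0.999 over the 6 monolayer libraries. These genes share reads and libraries, so the values are a description. For Pla2g4c with the same 3 genes the correlation was 0.588 to 0.781 in tissue and 0.582 to 0.738 in the monolayers. For Gsdmc with these 3 genes it was 0.951 to 0.997 in tissue and 0.3 to 0.484 in the monolayers, where at most 1 Gsdmc read was counted. SI monolayers replicate 3, with 34 cluster reads, and LI monolayers replicate 1, with 118, were the lowest of their groups and enter all monolayer values. In SI tissue, replicate 1 was the lowest library for all 4 gasdermin C genes and for Pla2g4c, and it also had the largest share of mitochondrial counts, at 9.16% against 4.56% and 5.92%.

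Summed markers of differentiated enterocytes and colonocytes were lower in the monolayers, though not every marker was. The 12 markers summed to 9540 to 13400 CPM in tissue and 4100 to 4300 CPM in monolayers of the small intestine, and to 4250 to 6900 and 1100 to 1150 CPM in those of the large intestine. By the call rule 5 of the 12 fell with culture in the small and 6 in the large intestine, none rose, and Slc20a1 was at 30.2 to 39.3 CPM in SI tissue and 55.4 to 57.7 CPM in SI monolayers. The 12 tuft cell markers summed to 522 to 710, 43.2 to 45.5, 56.6 to 91.8 and 11.2 to 13.7 CPM in the same order of groups. Of these, 12 fell in the small and 11 in the large intestine, and none was at or below 3 counts throughout a group. The 12 mesenchymal markers summed to 19.5 to 35.6, 12.7 to 23.1, 48.3 to 72.5 and 36.5 to 57.3 CPM, and 5 fell in each organ while 2 (Lum and Pdgfra) rose in the large intestine. In bulk RNA, fewer cells of a type and less RNA per cell cannot be told apart, and the part of these shifts in the member values was not tested.

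By the likeness of patterns over the 12 libraries (Pearson r of log2 CPM among 9208 other genes), the summed gasdermin C counts were closest to Gsdmcl2 (r = 0.995), Cisd2 (0.990) and Trim36 (0.984). Cisd2 had means of 75.4 and 74.8 CPM in SI and LI tissue against 56.0 and 54.7 CPM in the monolayers, so its pattern was alike while its range was narrow. Gsdmd was closest to Prkch (0.970), Mcur1 (0.966) and 2510039O18Rik (0.954). Pla2g4c was closest to Rfk (0.968), the mitochondrial transfer RNA gene mt-Tp (0.967) and Cd24a (0.966). The share of mitochondrial counts itself followed the groups, with 4.56% to 9.16% in tissue and 0.472% to 0.559% in monolayers of the small intestine, and 2.25% to 2.59% and 0.704% to 0.75% in those of the large intestine. The 12 points fall into 4 groups, so each r mostly reflects 4 group levels.

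By the call rule used for all genes, an adjusted p under 0.05 with a fold change of at least 2, 5 of the 6 members were lower and 0 higher in SI monolayers than in SI tissue, where 16.4% and 9.71% of 19581 tested genes were. In LI monolayers against LI tissue 5 were lower and 0 higher, against 23.5% and 14.5% of all tested genes. In LI tissue against SI tissue 1 was lower and 0 higher (11.6% and 11.1% of all genes), and in LI against SI monolayers 0 were lower and 1 higher (12.4% and 8.88%). In the interaction 2, Gsdmd and Pla2g4c, were positive and 0 negative, where 8.51% and 11.4% of all genes were, and Gsdmd was at 0.99, below the minimum, without LI monolayers replicate 1. The members were selected on these contrasts, and nothing is read from the counts. Their median log2 fold change was -9.2 in the small and -8.36 in the large intestine with the fitted values of Gsdmc, and -9.11 and -7.9 with Gsdmc at its bound of 3 counts over the group, beside -0.05 for all tested genes in both.

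The genes around gasdermins and phospholipase A2 were followed as 7 lists of 90 genes in all, of which 88 had a count and 79 were tested. Of these, 33 fell and 2 rose in SI monolayers against SI tissue, and 39 fell and 7 rose in LI monolayers against LI tissue. By the same rule, of all tested genes 16.4% fell and 9.71% rose in SI monolayers, and 23.5% fell and 14.5% rose in LI monolayers. In LI tissue 20 were higher and 21 lower than in SI tissue, in LI monolayers 17 were higher and 28 lower than in SI monolayers, and in the interaction 10 were positive and 18 negative. Shares of all tested genes were 11.1% higher and 11.6% lower between tissues, 8.88% and 12.4% between monolayers, and 8.51% and 11.4% in the interaction. The same shares apply to the single lists and to the marker counts above, and counts near them are not read as results. The median log2 fold change of the 79 genes was -0.59 in the small and -1.16 in the large intestine with culture, beside -0.05 for all tested genes. Genes in brackets without values complete a count of 5 or fewer and were named after their values were seen.

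**Figure D5:**
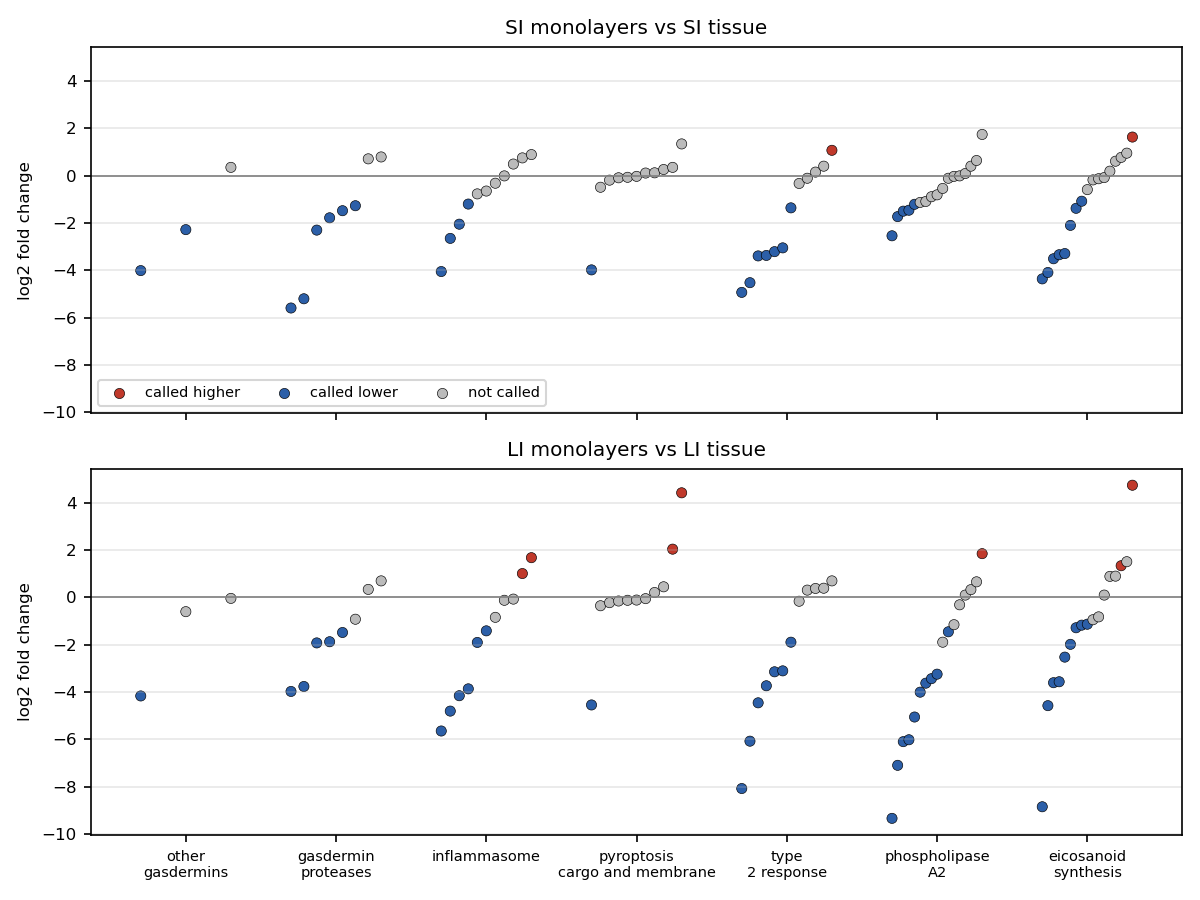
Log2 fold changes of the tested genes of the 7 lists, 1 point a gene, in SI monolayers against SI tissue (top) and LI monolayers against LI tissue (bottom), coloured by call. Most called genes lie below 0, with falls reaching -5.59 in the small and -9.34 in the large intestine, and the genes of the pyroptosis cargo and membrane list gather near 0.

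Of the 5 other gasdermins, 3 were tested. Gsdme, the gasdermin cut by caspase 3, had 16.2 ± 1.48 CPM in SI tissue and 20.7 ± 1.35 in SI monolayers, and 12 ± 1.06 and 11.5 ± 1.61 CPM in the large intestine, and it was called in no comparison. Gsdma, a gasdermin best known from skin, fell in SI monolayers by 2.28 on the log2 scale (SE 0.31, edgeR adjusted p = 9.27e-06), from 1.61 ± 0.314 to 0.33 ± 0.0718 CPM. With culture of the large intestine it stood at -0.61 on the log2 scale (edgeR adjusted p = 0.0713), and it crossed the threshold at -1.03 without LI monolayers replicate 1. Gsdma2 fell in SI monolayers by 4.01, from 0.924 ± 0.293 CPM to 0.055 ± 0.0477 CPM (edgeR adjusted p = 0.000217). Its fall in LI monolayers started from 0.0309 CPM, below 3 counts in a library, with an edgeR adjusted p of 0.0451 that rose to between 0.0531 and 0.12 when 1 of 7 libraries was left out. Gsdma3 and Pjvk were near 0 and not tested.

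Of the 10 gasdermin proteases, 8 were tested, and 6 fell in SI and 5 in LI monolayers, with none higher. Those that fell most in both were Gzma and Gzmb, the granzymes of cytotoxic lymphocytes. Gzma went from 318 ± 45.7 to 6.58 ± 0.316 CPM in the small intestine, a log2 fold change of -5.59 (edgeR adjusted p = 1e-06), and from 11.1 ± 2.47 to 0.832 ± 0.633 CPM in the large intestine (-3.77, edgeR adjusted p = 3.7e-05). Gzmb fell by 5.2 and 3.98. Of 11 immune markers tested, 9 fell and Cd68 rose in the monolayers of each organ, and their part in the granzyme values was not tested. Casp1 and Casp4, the caspases that cut Gsdmd, were named after their values were seen. Casp1 fell from 199 ± 13.8 to 82.7 ± 4.58 CPM in the small intestine and from 241 ± 14.6 to 65.7 ± 5.22 CPM in the large intestine (edgeR adjusted p = 2.72e-10 and 1.22e-12). Casp4, the mouse gene of caspase 11, was not called with culture but was higher in LI than in SI tissue by 1.34 and in LI than in SI monolayers by 1.24 (edgeR adjusted p = 9.62e-10 and 2.11e-09).

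Of the 14 inflammasome genes, 11 were tested, and 4 fell in SI monolayers (Naip5, Nlrp1b, Nlrp9b and Pycard), while 6 fell and 2 rose in LI monolayers. Pycard, the adaptor that links sensors to caspase 1, went from 194 ± 12.4 to 30.8 ± 0.937 CPM in the small intestine and from 153 ± 16 to 3.05 ± 0.428 CPM in the large intestine. Its log2 fold changes were -2.65 and -5.65 (edgeR adjusted p = 1.94e-12 and 1.84e-15), and the interaction was -3.0 (edgeR adjusted p = 1.38e-10). Nlrp6, an epithelial sensor, stood at 381 ± 30.9 and 353 ± 6.06 CPM in SI and LI tissue, and at 224 ± 4.44 and 24.2 ± 1.1 CPM in SI and LI monolayers, with an interaction of -3.1 (edgeR adjusted p = 4.24e-13). Nlrp9b, an intestinal sensor of viral RNA, fell by 4.05 and 4.81. Nek7, which licenses Nlrp3, rose in LI monolayers by 1.67 (edgeR adjusted p = 6.23e-13) and was higher in LI than in SI tissue by 1.81. Aim2, a DNA sensor, was higher in LI than in SI by 3.6 in tissue and 3.03 in monolayers. The rise of Naip1 in LI monolayers sat at the 2-fold limit, with a log2 fold change of 1.0 that was 0.88 to 0.99 under 11 other settings.

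All 11 genes of the pyroptosis cargo and membrane list were tested. In SI monolayers 1 fell (Il1b), while in LI monolayers 1 fell (Il1b) and 2 rose (Il33 and Il1a). Il33, an alarmin that drives type 2 immunity, was higher in SI tissue than in LI tissue, at 21.6 ± 7.28 against 0.964 ± 0.262 CPM (log2 -4.48, edgeR adjusted p = 1.52e-08). It rose in LI monolayers to 3.94 ± 0.377 CPM (2.03, edgeR adjusted p = 1.37e-05), with an interaction of 2.52 (edgeR adjusted p = 5.02e-05). Il18, a cytokine released through Gsdmd pores, was higher in LI than in SI tissue by 1.18 (edgeR adjusted p = 0.000406), and by 1.0 in the monolayers, a call that was lost at 0.94 to 1.0 under 9 other settings.

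Of the 13 genes of the type 2 response, 12 were tested, and 7 fell in each culture comparison, with 1 rise, of Sprr2a1, in SI monolayers (1.07). The receptor genes Il4ra and Il13ra1 and the transcription factor Stat6, named after their values were seen, were called in no comparison, and Stat6 had 163 ± 4.01 and 99.0 ± 1.77 CPM in SI and LI tissue and 181 ± 1.45 and 129 ± 3.48 CPM in the monolayers. Retnlb, a goblet cell protein, fell from 827 ± 235 to 3.05 ± 0.525 CPM in the large intestine (-8.08, edgeR adjusted p = 6.55e-06), and its log2 fold change was -4.93 in the small intestine (edgeR adjusted p = 0.00016). Ang4, an antimicrobial ribonuclease, fell by 6.08 in LI monolayers (edgeR adjusted p = 4.56e-05). Il2rg, the common gamma chain of lymphocyte cytokine receptors, fell by 3.39 in SI monolayers (edgeR adjusted p = 2.72e-08). Between tissues, the tuft cell genes Pou2f3 and Dclk1 were lower in LI, with log2 differences of -3.56 and -2.46, and Clca1, a goblet cell product, was higher by 1.32 and Retnlb by 4.02. Between monolayers, Pou2f3 and Ang4 were lower in LI, with log2 differences of -3.45 and -4.75.

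Of the 20 other phospholipase A2 genes, 17 were tested, and 5 fell in SI monolayers (Pla2g10, Pla2g3, Pla2g5, Pla2g7 and Plaat3) while 10 fell and 1 rose in LI monolayers. Pla2g5, a secreted enzyme, fell from 74.2 ± 7.95 to 0.11 ± 0.0561 CPM in the large intestine (-9.34, edgeR adjusted p = 7.07e-16) and from 22.7 ± 1.25 to 3.91 ± 0.415 CPM in the small intestine (-2.54, edgeR adjusted p = 1.53e-11). Pla2g2a, another secreted enzyme, fell by 7.1 in LI monolayers (edgeR adjusted p = 3.8e-05). Pla2g7, the platelet-activating factor hydrolase, fell by 1.73 in SI monolayers and rose by 1.84 in LI monolayers, with an interaction of 3.56 (edgeR adjusted p = 1.19e-06).

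The phospholipases also differed between organs. Pla2g4f, of the same cytosolic family as Pla2g4c, showed the opposite preference in tissue: it had 19.8 ± 2.85 CPM in LI tissue and 0.0214 ± 0.0188 CPM in SI tissue, which is under 3 counts in a library (edgeR adjusted p = 2.27e-12). It was also higher in LI than in SI monolayers, at 1.6 ± 0.312 against 0.0747 ± 0.0419 CPM. Pla2g10 was higher in LI than in SI tissue by 4.55 and in LI than in SI monolayers by 2.32, while Pla2g12b was lower, with log2 differences of -4.63 and -5.19. Pla2g6 was lower in LI tissue, at -1.65. Pla2g4a, the calcium-dependent founding member of the cytosolic family and named after its values were seen, was not called with culture in either organ, and was higher in LI than in SI by 1.36 in tissue and 1.79 in monolayers (edgeR adjusted p = 1.9e-10 and 9.71e-12).

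All 17 genes of eicosanoid synthesis were tested, and 8 fell and 1 rose in SI monolayers while 9 fell and 2 rose (Ptgs2 and Ptges3) in LI monolayers. Alox5 and Alox5ap, the 5-lipoxygenase and its activating protein, fell in SI monolayers by 4.36 and 4.09 (edgeR adjusted p = 7.78e-09 and 4.57e-11), and Alox5ap fell by 4.58 in LI monolayers. Alox5 is itself on the tuft cell list. The 6 tuft markers outside all pathway lists summed to 372 to 509 CPM in tissue and 26.5 to 29.8 CPM in monolayers of the small intestine, and to 34.3 to 56.1 and 4.2 to 6.1 CPM in those of the large intestine, and their part in the values of Alox5 and Alox5ap was not tested. Ptgs2, the inducible cyclooxygenase, rose in LI monolayers from 2.54 ± 2.44 to 67.3 ± 5.84 CPM (4.73, edgeR adjusted p = 0.000371), and was 7.23 ± 0.845 and 6.85 ± 1.88 CPM in SI tissue and monolayers, with an interaction of 4.81 (edgeR adjusted p = 0.00337). Ptges3 rose in LI monolayers by 1.33. Alox15, the 12/15-lipoxygenase, had 5.55 ± 0.813 CPM in LI tissue and 0.00966 ± 0.0167 CPM in LI monolayers, under the floor, and rose in SI monolayers by 1.63 from 0.223 ± 0.0683 CPM.

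Between organs, Ptges, a prostaglandin E synthase, was higher in LI than in SI tissue by 3.34 (edgeR adjusted p = 2.97e-07), and Alox15 by 4.63, while Ptgs1, the constitutive cyclooxygenase, and Alox5ap were lower, with log2 differences of -3.0 and -2.91. In the monolayers Ptgs2 and Ptgis, the prostacyclin synthase, were higher in LI by 3.3 and 3.03, and Alox5ap was lower, with a log2 difference of -3.41. Hpgds, the hematopoietic prostaglandin D synthase, fell less in the large than in the small intestine, with an interaction of 2.37 (edgeR adjusted p = 9.2e-07), and Cbr1, a carbonyl reductase, fell in the large intestine with an interaction of -3.39 (edgeR adjusted p = 1.59e-09).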

How the data were processed

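RNA from 12 libraries was sequenced as paired ends, and the authors aligned reads to GRCm38 with STAR 2.7.9a and counted them per GENCODE gene with featureCounts 2.0.2, as the submitters' processing notes and the methods state. The handling of reads with several matches and of strand is not given in the sources used here. The deposited raw table holds counts. The deposited normalized table holds a signal, in which each library's counts were scaled by a single DESeq2 factor (0.8502 to 1.1234; DESeq2 is given as version 3.13). Both cover 55487 genes, 55141 of which were matched to a symbol. Depth was 59016196 to 76216530 counts per library, and intervals and floors cover counting error only.

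Group means were fitted to the counts in 1 model with edgeR 4.0.16 (TMM scaling, filterByExpr, robust quasi-likelihood test, Benjamini-Hochberg over 19581 genes; a call needs an adjusted p under 0.05 and a log2 change of 1 or more either way). The code was tested on simulated data. DESeq2 1.42.0, upper quartile scaling, no low-count filter, only the groups compared, the replicate block, each library left out and no minimum fold change were alternatives. CPM per kb used exon lengths of a GENCODE annotation of the same build, and log2 CPM a prior count of 2. The tissue libraries were mice and the monolayer libraries pooled wells, so the spread of the latter may be partly technical.

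The members and lists were chosen with earlier results of these data known. One list gene is not reported by name here. Named from the lists were all other gasdermins and, per list and comparison, up to 2 called genes with the largest rise and 2 with the largest fall at a mean of at least 1 CPM, and for likeness the 3 closest genes at a mean of at least 10 CPM. Other names were chosen after values were seen, as stated. Sequences came from GENCODE transcripts and, for promoters, RefSeq, whose table held windows for 2 of the 6 members.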

Additional observations from a re-analysis of the deposited data

Results flagged for a closer look

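Gsdmd moved in opposite directions with culture in the 2 organs, with every monolayer library below every tissue library in the small intestine and above in the large intestine. The interaction was 1.12 on the log2 scale and met the call rule, but Gsdmd was chosen for these values, so this is no independent test of the difference and no p is given. Without LI monolayers replicate 1 it was 0.99 and no longer met the rule.

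Among the list genes, the culture difference in the large intestine minus that in the small intestine passed the test of the interaction (edgeR, adjusted over all genes) for several that differ by organ. It was positive for Gsdma (1.67), Gzma (1.82), Il33 (2.52), Dclk1 (1.16), Pla2g7 (3.56), Ptgs2 (4.81) and Hpgds (2.37). It was negative for Pycard (-3.0), Nlrp6 (-3.1), Ang4 (-2.71), Retnlb (-3.15), Pla2g5 (-6.81), Pla2g2a (-6.01), Alox15 (-10.48, with LI monolayers under the floor) and Cbr1 (-3.39). The value of Gzma fell to 1.06 and lost its call without LI monolayers replicate 2, and it also lost its call under 9 other settings at 1.64 to 1.82. The call of Dclk1 was lost at 1.0 and 0.99 without SI tissue replicate 2 or LI monolayers replicate 3, that of Ang4 at -2.25 to -2.6 without 1 of 3 libraries, and that of Retnlb at -2.69 without SI monolayers replicate 1.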

How the results depend on the processing

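The 5 members with a fitted fold change kept its direction in both culture comparisons under every alternative run, and Gsdmc2, Gsdmc3, Gsdmc4 and Pla2g4c stayed lower by more than the minimum fold. Without a minimum fold change, 11674 genes passed in SI monolayers against SI tissue instead of 5110, 13445 instead of 7442 in LI monolayers against LI tissue, 10558 instead of 4446 in LI against SI tissue, 10145 instead of 4159 in LI against SI monolayers and 9069 instead of 3909 in the interaction. List genes then numbered 64 instead of 41 between tissues and 50 instead of 28 in the interaction. With upper quartile scaling the culture difference of Gsdmd in the large intestine was 0.24 instead of 0.36. With 1 library left out, Gsdmd ranged from 0.27 to 0.40 there, from 0.79 to 0.85 between monolayers and from 0.99 to 1.22 in the interaction. Same-numbered libraries correlated at -0.0516 to 0.0563 in their deviations from group means, which cannot settle whether they shared mice. According to the paper's methods, large intestine for monolayers was taken from the mice that gave the small intestine. Which libraries shared mice is not given in the sources used here, and the main model did not pair libraries. With the replicate block, 5017 genes passed in the small and 7367 in the large intestine, and Pla2g4c had -12.9 and -3.62. The block ended 1 interaction call among the named genes, that of Gzma. Depth limits Gsdmc in the monolayers, where at most 1 read was counted, and the cause of the uneven low counts of the cluster and Pla2g4c among monolayer replicates was not tested.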
